A study of Mus musculus with 36 samples.

Results

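The signalling chain that runs from interleukin 6 (IL-6) through its receptors to the transcription factor STAT3 and the inhibitor SOCS3 was followed as 9 mouse genes: Il6, Il6ra, Il6st, Osmr, Lifr, Jak1, Jak2, Stat3 and Socs3. The members were taken by gene symbol and matched 13 probes of the array, out of 12394 named genes in all. Where a gene had 2 probes, the one with the higher mean over all 36 arrays was used and the other is given beside it. RNA came from 4 tissues (brain, heart, kidney, liver) of female FVB mice, 6 to 8 weeks old, that carried a luciferase transgene. The LPS+genipin mice received 4 mg/kg of bacterial lipopolysaccharide (LPS) into the abdomen and, 10 min later, genipin, an iridoid from gardenia fruit. The LPS mice received the LPS alone, and the mock mice were untreated. Tissues were taken 4 h after treatment. Each tissue had 3 arrays per group, 36 in all. The study as a whole used 25 mice and genipin at 1, 10 or 100 mg/kg; the sources used here do not say which of these doses the arrayed mice had, nor do they give the promoter of the transgene or whether the 3 arrays of a group were 3 mice. The p-values therefore measure only the spread between arrays.

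IL-6 binds its receptor, encoded by Il6ra, and the pair then engages gp130, the signal-transducing chain encoded by Il6st. Oncostatin M and leukaemia inhibitory factor use gp130 together with the chains encoded by Osmr and Lifr. The Janus kinases JAK1 and JAK2 sit on the receptor tails and phosphorylate STAT3, which enters the nucleus. Among its targets is Socs3, whose product binds gp130 and the kinases and so shuts the pathway off, and in liver the pathway drives the acute-phase proteins.

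Promoters of all 9 members were found in the RefSeq table of assembly GRCm38.p6, in 10 windows of 300 bases (250 before the transcription start and 50 after), Lifr having 2 starts. Each was searched for TTCNNNGAA, the core letters that STAT factors bind, and for a form of the NF-kB site, GGGATTTTCC with any letter allowed at its position 5, on both strands. TTCNNNGAA reads the same on both strands, and no match of one overlapped a match of the other. Socs3 held the STAT letters and Il6 the NF-kB form, and both are shown for that reason, each as the 250 bases before the start, 5′ to 3′ on the gene's strand, with the match in capitals.
Socs3: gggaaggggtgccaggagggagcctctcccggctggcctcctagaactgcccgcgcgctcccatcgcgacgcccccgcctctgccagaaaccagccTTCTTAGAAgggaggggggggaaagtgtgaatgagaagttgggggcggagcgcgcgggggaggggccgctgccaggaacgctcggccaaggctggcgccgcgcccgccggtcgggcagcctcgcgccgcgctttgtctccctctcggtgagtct
Il6: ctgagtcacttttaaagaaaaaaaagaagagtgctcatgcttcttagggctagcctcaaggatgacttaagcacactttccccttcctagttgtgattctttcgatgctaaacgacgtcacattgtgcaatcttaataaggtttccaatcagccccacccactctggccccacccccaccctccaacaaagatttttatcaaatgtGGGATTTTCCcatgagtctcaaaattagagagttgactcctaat
The Socs3 stretch lies at chr11:117969367-117969616 on the minus strand, and its TTCNNNGAA match covers bases 154 to 146 before the start. That stretch lies inside the gene's own interval, 117966079 to 117970336, so the start used is not the outermost one. The Osmr window and both Lifr windows likewise lie inside their gene intervals. Of 32817 promoter windows of that length, 8.29% hold TTCNNNGAA. The Il6 stretch lies at chr5:30012864-30013113 on the plus strand, with the NF-kB match 44 to 35 bases before the start. That motif is in 0.411% of the windows. The search form has the letters of the Il6 match with position 5 freed, so this match is a description and no test. A match describes the letters of the window and does not show that a factor is bound there.

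Not every member was measured in every tissue. Il6st, Jak1, Stat3 and Socs3 were measured in all 4. Il6 was measured in liver, Il6ra in heart and liver, Osmr in heart and kidney, Lifr in kidney and liver, and Jak2 in brain, kidney and liver. These are the tissues of the probe used, and in heart Lifr and Jak2 were read by their second probes alone. Values are normalized intensities, linear in fluorescence and set to a common distribution within a tissue, so that levels are not compared between tissues or between probes. Differences are log2 differences between group means ± SE, with 3 arrays per group, after intensities under a floor of 263 were raised to it. The SE is limma's, from a spread estimated over all 9 arrays of the tissue and moderated across genes. Unless stated otherwise, p-values are from limma, adjusted by Benjamini-Hochberg over all genes of the tissue, with 0.05 as the threshold.

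Arrays of one group correlated at 0.984 to 0.998. Markers fixed for each tissue stood near the top of a mock array, at median percentiles of 97 for neurons in brain, 99 for cardiomyocytes in heart, 98 for tubule cells in kidney and 99 for hepatocytes in liver. In brain, all 4 measured skeletal muscle markers of 6 fell in LPS arrays, with summed intensities of 3749 to 4086 in LPS+genipin brains, 3416 to 3680.1 in LPS brains and 112506 to 118985 in mock brains. All 5 measured microglial markers of 6 fell with LPS, with sums of 10641 to 11053 in LPS+genipin brains, 5776 to 6568 in LPS brains and 14113 to 14592 in mock brains. In heart, 2 of 3 measured adipocyte markers of 6 rose with LPS, with sums of 17222 to 24770.2 in LPS+genipin hearts, 85686 to 97584 in LPS hearts and 12592 to 17858 in mock hearts. Ttr, a choroid plexus and hepatocyte marker, is given here without the other listed choroid plexus markers and does not stand for that cell type. It was at least 22.1-fold higher in LPS+genipin than in LPS brains and at least 22.0-fold lower in LPS than in mock brains. None of these measured markers lay at the floor in all 9 arrays of its tissue. Their part in the results below was not tested, and a change in whole tissue cannot tell fewer or more cells of a type apart from less or more RNA per cell.

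With LPS against mock, most measured members rose. In brain 3 of 5 measured members rose and 1, Jak2, fell, against 16.4% and 17.6% of all genes. That Jak2 call is from its brighter probe, and its other probe did not pass (0.15 ± 0.12). In heart 4 of 6 rose and none fell, against 18.3% and 29.1%. In kidney 5 of 7 rose and none fell, against 25.3% and 39.2%, and in liver 5 of 8 rose and 1, Lifr, fell, against 29.3% and 37.2%. The heart count leaves out the second probes of Lifr, which fell there (-0.39 ± 0.10), and of Jak2, which did not pass (0.23 ± 0.11). In kidney the second Jak2 probe rose (0.51 ± 0.08). The second Il6st probe did not pass in brain (0.23 ± 0.14) or heart (0.37 ± 0.14). The median log2 difference of the members was 0.35 (brain), 0.45 (heart), 0.85 (kidney) and 1.12 (liver), where the median of all genes lay between -0.09 and -0.00. LPS and mock arrays were fully apart for 4 of 5 members in brain, 4 of 6 in heart, 5 of 7 in kidney and 8 of 8 in liver, beside 47.7%, 54.3%, 69.3% and 70.5% of all genes.

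With LPS+genipin against LPS, the count ran mostly the other way outside liver. In brain 2 of 5 members, Socs3 and Stat3, fell and 1, Jak2, rose, against 13.8% and 16.4% of all genes. The Jak2 call is again from the brighter probe, whose arrays disagreed, and the other probe did not pass (-0.29 ± 0.12). In heart 4 of 6 (Socs3, Stat3, Osmr and Il6st) fell and 1, Jak1, rose, against 19.9% and 22.1%. In kidney 5 of 7 (the same 4 and Jak1) fell and none rose, against 22.6% and 32.3%. In liver 2 of 8, Il6 and Socs3, fell and 2, Jak1 and Lifr, rose, against 24.4% and 29.6%. The heart count leaves out the second probes of Lifr and Jak2, both of which rose there (0.34 ± 0.10 and 0.67 ± 0.11). In kidney the second Lifr probe rose (0.29 ± 0.08). The second Il6st probe did not pass in heart (-0.18 ± 0.14) or kidney (-0.12 ± 0.09) and rose in liver (0.29 ± 0.09). The medians of the members were -0.15, -0.43, -0.62 and -0.14, where those of all genes were 0.01 to 0.04. LPS+genipin and LPS arrays were fully apart for 3 of 5, 5 of 6, 5 of 7 and 5 of 8 members in the same order of tissues, beside 39.0%, 52.7%, 62.0% and 60.4% of all genes. The LPS arrays stand in both comparisons, so that the 2 are not independent of each other.

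**Figure D1:**
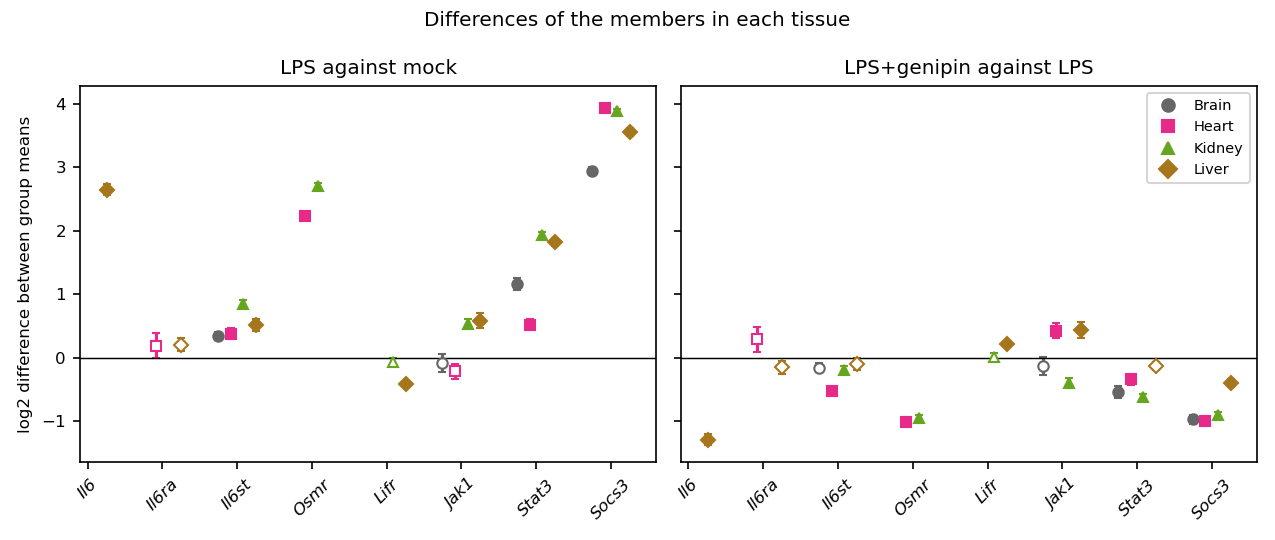
Log2 differences between group means (vertical axis) of 8 members, LPS against mock on the left and LPS+genipin against LPS on the right. Markers stand for tissues, bars for ± limma's SE with 3 arrays per group, and filled markers passed the test. Socs3 stood between 2.94 and 3.93 with LPS against mock and between -0.997 and -0.40 with LPS+genipin against LPS; the liver value of Il6 with LPS is a lower bound, and Jak2 is left out because its arrays disagreed.

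Il6, which encodes the ligand (chromosome 5, 30013114 to 30019975; gene coordinates are those of GRCm38.p6), was read in liver alone. Its intensities were 725, 678 and 632 in LPS+genipin livers, 1477, 1655 and 1842 in LPS livers and 183, 203 and 189.7 in mock livers. The 3 groups did not overlap, and the mock arrays all lay under the floor. Il6 was thus at least 6.29-fold higher in LPS than in mock livers (adjusted p = 8.47e-08). Between LPS+genipin and LPS livers the difference was -1.29 ± 0.09 (adjusted p = 1.30e-05), and LPS+genipin livers were still at least 2.58-fold above mock (adjusted p = 5.27e-06).

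Osmr (chromosome 15, 6813568 to 6874968), the oncostatin M receptor chain, had the largest differences of the receptor genes. In heart its intensities were 2574, 2913 and 2798 in LPS+genipin arrays, 5400.1, 5484 and 5815 in LPS arrays and 1214, 1069 and 1268 in mock arrays. In kidney they were 2251, 2397 and 2295 in LPS+genipin arrays, 4395, 4673 and 4363 in LPS arrays and 662, 675 and 726 in mock arrays. In both tissues the LPS arrays were highest, the mock arrays lowest and the LPS+genipin arrays between them, with no overlap. LPS raised Osmr 4.71-fold in heart (2.24 ± 0.08, adjusted p = 2.19e-07) and 6.51-fold in kidney (2.70 ± 0.05, adjusted p = 3.42e-09). LPS+genipin against LPS gave -1.01 ± 0.08 in heart (adjusted p = 3.75e-05) and -0.95 ± 0.05 in kidney (adjusted p = 3.96e-06). LPS+genipin hearts held 36.004% and LPS+genipin kidneys 42.9% of the LPS increment in intensity.

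**Figure D2:**
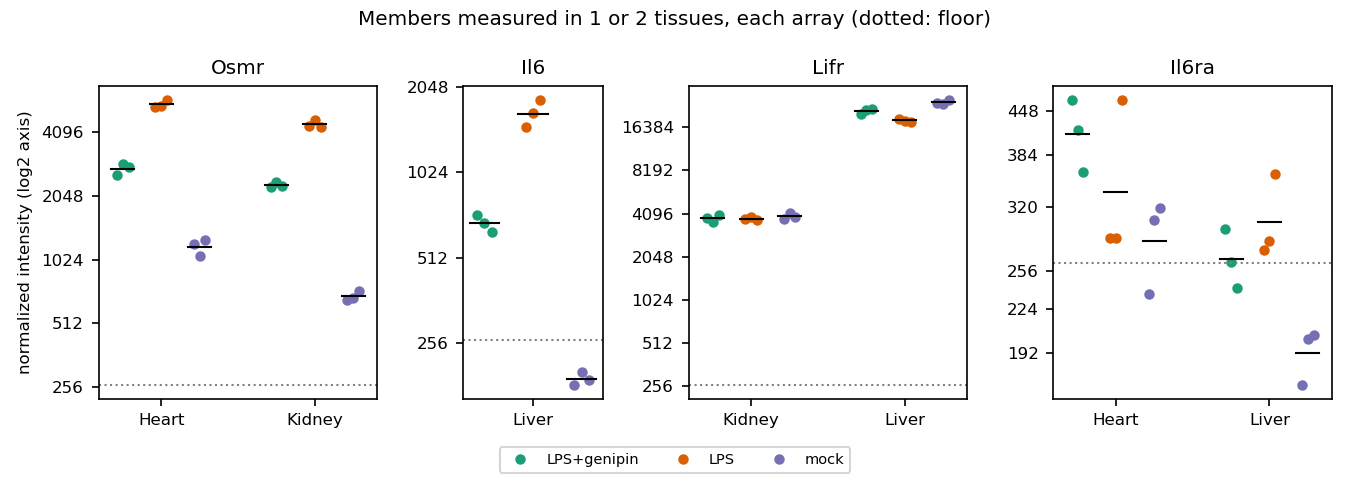
Normalized intensity (log2 axis) of Osmr, Il6, Lifr and Il6ra in each array of the tissues in which they were measured, with LPS+genipin, LPS and mock from left to right; points are arrays, bars are group means of the log2 values before the floor, and the dotted line is the floor of 263. Osmr and Il6 have 3 separate levels with LPS highest, liver Lifr has LPS lowest, and Il6ra lies close to the floor.

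Il6st (chromosome 13, 112464070 to 112506860), which encodes the shared chain gp130, rose with LPS in every tissue, by less than Osmr in heart and kidney. In kidney its intensities were 3356, 3072 and 3504 in LPS+genipin arrays, 3972, 3628 and 3707 in LPS arrays and 2042, 2122 and 2099.6 in mock arrays. In heart they were 4373, 5324 and 5188 in LPS+genipin arrays, 7355, 7149 and 6823 in LPS arrays and 5558, 5239 and 5539.8 in mock arrays. In heart the LPS+genipin arrays lay below every LPS array and overlapped the mock arrays, whereas in kidney they lay far above mock and just under LPS. The LPS differences were 0.35 ± 0.07 (brain), 0.38 ± 0.08 (heart), 0.85 ± 0.06 (kidney) and 0.52 ± 0.09 (liver), with adjusted p-values of 0.00709, 0.00531, 6.45e-06 and 0.00123. Set against LPS arrays, LPS+genipin arrays had lower Il6st in heart (-0.52 ± 0.08, adjusted p = 0.0014) and kidney (-0.19 ± 0.06, adjusted p = 0.0238). It did not pass in brain (-0.15 ± 0.07, 95% interval -0.31 to 0.01) or liver (-0.09 ± 0.09, 95% interval -0.30 to 0.11). The kidney call was lost without LPS+genipin array 2 (-0.14, adjusted p = 0.0629) and without LPS array 1 (-0.15, adjusted p = 0.0747).

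The second Il6st probe gave smaller values for LPS against mock. Its LPS differences were 0.23 ± 0.14 (brain), 0.37 ± 0.14 (heart), 0.31 ± 0.09 (kidney) and 0.44 ± 0.09 (liver), of which kidney and liver passed (adjusted p = 0.0171 and 0.00369). For LPS+genipin against LPS it gave 0.05 ± 0.14 in brain (adjusted p = 0.819), -0.18 ± 0.14 in heart (adjusted p = 0.336), -0.12 ± 0.09 in kidney (adjusted p = 0.29) and 0.29 ± 0.09 in liver (adjusted p = 0.0303), so that the probes differ in sign in brain and liver. For LPS+genipin against mock it gave 0.19 ± 0.14 in heart and 0.73 ± 0.09 in liver (adjusted p = 0.375 and 0.00027), and in heart the brighter probe had the other sign (-0.14 ± 0.08, adjusted p = 0.264).

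Lifr (chromosome 15, 7090610 to 7197489), the receptor chain for leukaemia inhibitory factor, moved the other way in liver. Its liver intensities were 20353, 21670.2 and 21923 in LPS+genipin arrays, 18800.1, 18239 and 17893 in LPS arrays and 24135, 23856 and 25297 in mock arrays. The LPS arrays were lowest, the mock arrays highest and the LPS+genipin arrays in between, without overlap. Lifr fell with LPS (-0.42 ± 0.05, adjusted p = 0.000132) and was higher with LPS+genipin than with LPS (0.22 ± 0.05, adjusted p = 0.00631). In kidney its intensities were 3844, 3583 and 4028 in LPS+genipin arrays, 3727, 3883 and 3667 in LPS arrays and 3749.6, 4118 and 3879 in mock arrays, and these overlapped. The kidney differences were -0.06 ± 0.06 for LPS against mock (95% interval -0.19 to 0.07) and 0.02 ± 0.06 for LPS+genipin against LPS (95% interval -0.11 to 0.15). The second Lifr probe, much dimmer, was also read in heart, where it fell with LPS (-0.39 ± 0.10, adjusted p = 0.0136) and was higher with LPS+genipin than with LPS (0.34 ± 0.10, adjusted p = 0.0272). In kidney that probe was higher with LPS+genipin than with LPS (0.29 ± 0.08, adjusted p = 0.0172).

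Il6ra (chromosome 3, 89869324 to 89913196), which encodes the IL-6-binding receptor, was close to the floor. In heart its intensities were 464, 419 and 362 in LPS+genipin arrays, 287, 287 and 465 in LPS arrays and 236, 305 and 319 in mock arrays. In liver they were 296, 264 and 241 in LPS+genipin arrays, 275, 284 and 359 in LPS arrays and 172, 202 and 204 in mock arrays. In heart the LPS arrays overlapped both other groups while the LPS+genipin arrays lay above mock, in liver the LPS and LPS+genipin arrays overlapped, and the mock livers all lay under the floor. No Il6ra comparison passed in the reported fit: LPS against mock gave 0.19 ± 0.19 in heart (adjusted p = 0.445) and 0.21 ± 0.10 in liver (adjusted p = 0.101), the liver value being at least 1.16-fold. LPS+genipin against LPS gave 0.29 ± 0.19 in heart (95% interval -0.15 to 0.74) and -0.15 ± 0.10 in liver (95% interval -0.39 to 0.09). Without LPS array 3 the heart value for LPS+genipin against LPS was 0.52 (adjusted p = 0.0134), and without LPS array 1 the liver value for LPS against mock was 0.28 (adjusted p = 0.0483). LPS+genipin against mock gave 0.49 ± 0.19 in heart (adjusted p = 0.116) and at least 1.04-fold in liver (adjusted p = 0.646). With no floor, liver Il6ra passed with LPS against mock (0.66, adjusted p = 0.00159) and LPS+genipin against mock (0.47, adjusted p = 0.0103), and with only the 2 groups fitted heart Il6ra passed with LPS+genipin against mock (0.49, adjusted p = 0.0397).

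Jak1 (chromosome 4, 101151974 to 101265282), the Janus kinase that gp130 signalling depends on most, moved in different directions between tissues with LPS+genipin against LPS. In liver its intensities were 11925, 12360.1 and 10879 in LPS+genipin arrays, 8791, 8214 and 8868 in LPS arrays and 5544, 6956 and 4935 in mock arrays. There the LPS+genipin arrays were highest and the mock arrays lowest, without overlap. In kidney they were 13359, 13668 and 14776 in LPS+genipin arrays, 17659, 18790.4 and 18527 in LPS arrays and 13634, 11075 and 13405 in mock arrays, with the LPS arrays highest and the other groups overlapping. Jak1 rose with LPS in kidney (0.53 ± 0.08, adjusted p = 0.000726) and liver (0.58 ± 0.12, adjusted p = 0.003). It did not pass in brain (-0.08 ± 0.14, 95% interval -0.41 to 0.25) or heart (-0.21 ± 0.12, 95% interval -0.48 to 0.06).

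With LPS+genipin against LPS, Jak1 fell in kidney (-0.40 ± 0.08, adjusted p = 0.00451) and rose in heart (0.43 ± 0.12, adjusted p = 0.019) and liver (0.44 ± 0.12, adjusted p = 0.015). Heart intensities were 15061, 12982 and 14769.8 in LPS+genipin arrays, 10266, 9492 and 12125 in LPS arrays and 10887, 13511 and 12445 in mock arrays. The heart LPS+genipin arrays lay above every LPS array and overlapped the mock arrays. The heart call was lost when LPS+genipin array 1 or 3, or LPS array 1 or 2, was left out, at 0.39, 0.40, 0.41 and 0.35 (adjusted p = 0.0618, 0.0598, 0.057 and 0.0611). The liver call was lost without LPS+genipin array 2 (0.40, adjusted p = 0.0529). LPS+genipin livers stood 2.03-fold above mock livers for Jak1 (1.02 ± 0.12, adjusted p = 0.000152).

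Jak2 (chromosome 19, 29251803 to 29313095), the second kinase of the receptor, gave no steady reading on its brighter probe. In brain that probe read 399, 2426 and 2769.6 in LPS+genipin arrays, 15.2, 29.4 and 98.8 in LPS arrays and 2433, 2515 and 2278 in mock arrays. In kidney it read 3699, 67.9 and 9.46 in LPS+genipin arrays, 4455, 396 and 4679 in LPS arrays and 2369, 2516 and 2353 in mock arrays. In liver it read 63.1, 18.9 and 1453 in LPS+genipin arrays, 1562, 1530.2 and 1601 in LPS arrays and 737, 18.9 and 641 in mock arrays. Single groups thus held arrays both far under and far above the floor, and each tissue had arrays under the floor. The brain differences passed, with LPS at least 9.16-fold lower than mock (adjusted p = 0.00711) and LPS+genipin at least 5.29-fold above LPS (adjusted p = 0.0258). The second of these was lost on leaving out LPS+genipin array 2 or 3 or any one LPS array, with adjusted p-values of 0.0844, 0.0692, 0.0548, 0.0542 and 0.0648 and log2 differences of 2.00, 1.91 and, for each LPS array, 2.40. It was also lost with the mean of both probes (1.06, adjusted p = 0.0613), with the floor at the 10th percentile (2.04, 0.0664) and with only the 2 groups fitted (2.40, 0.0811).

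In kidney the brighter Jak2 probe gave -0.26 ± 1.24 for LPS against mock and -1.67 ± 1.24 for LPS+genipin against LPS (adjusted p = 0.879 and 0.288), the second of these at -2.94 without LPS+genipin array 1 (adjusted p = 0.0481). In liver it gave 1.65 ± 0.68 and -1.75 ± 0.68 (adjusted p = 0.061 and 0.0592), the second at -2.57 without LPS+genipin array 3 (adjusted p = 0.00271). The dimmer probe spread less within groups. In brain it read 362, 464 and 458 in LPS+genipin arrays, 581, 520.2 and 467 in LPS arrays and 481, 497 and 436 in mock arrays, and it did not pass there with LPS against mock (0.15 ± 0.12, adjusted p = 0.376) or LPS+genipin against LPS (-0.29 ± 0.12, adjusted p = 0.0997). It rose with LPS in kidney (0.51 ± 0.08, adjusted p = 0.001) and was higher in LPS+genipin than in LPS hearts (0.67 ± 0.11, adjusted p = 0.00204).

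**Figure D3:**
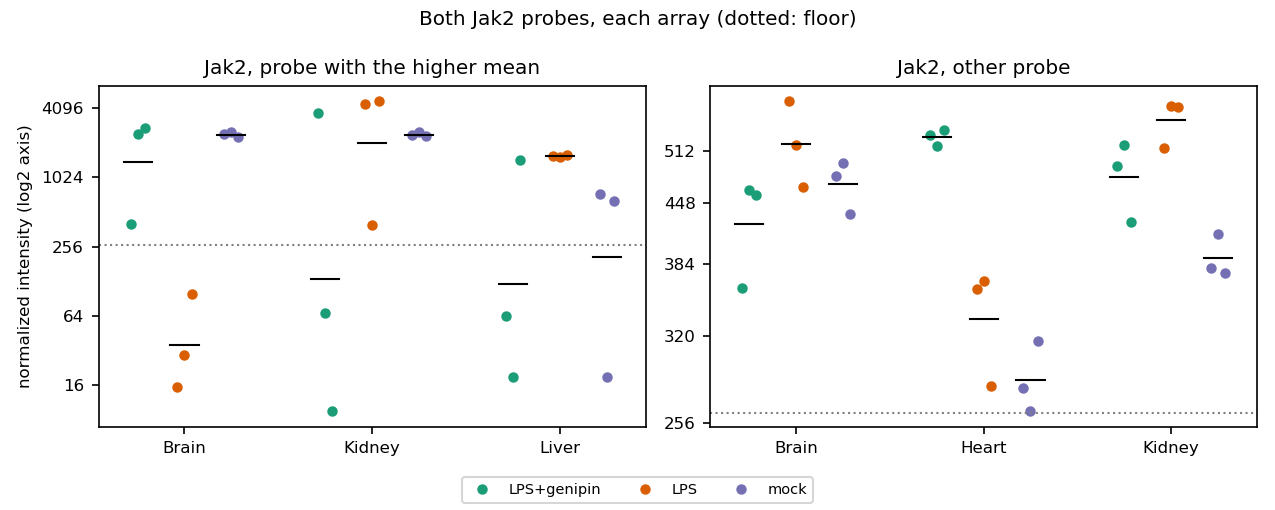
Normalized intensity (log2 axis) of both Jak2 probes in each array of the tissues in which each was read, with LPS+genipin, LPS and mock from left to right; points are arrays, bars are group means of the log2 values before the floor, and the dotted line is the floor of 263. The brighter probe, on the left, spreads over the floor within single groups, and the dimmer one, on the right, stays within a narrow range.

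Stat3 (chromosome 11, 100886806 to 100939594), the transcription factor of the pathway, rose with LPS in all 4 tissues. Its brain intensities were 3869, 4037 and 4220.1 in LPS+genipin arrays, 5069.8, 6164 and 6486 in LPS arrays and 2732, 2637 and 2485 in mock arrays. Heart intensities were 9181, 8950.0 and 7479.9 in LPS+genipin arrays, 10184, 11187 and 10915 in LPS arrays and 7489.6, 7442 and 7511 in mock arrays. In brain the 3 groups were separate, while in heart 1 LPS+genipin array lay among the mock arrays. Kidney intensities were 12233, 10913 and 11273 in LPS+genipin arrays, 17208, 18178 and 17472 in LPS arrays and 4650.3, 4817 and 4365 in mock arrays. Liver intensities were 12303, 11756 and 11894 in LPS+genipin arrays, 11871, 13535 and 13965 in LPS arrays and 3624, 3619 and 3827 in mock arrays. The kidney groups were separate, and the liver LPS+genipin arrays overlapped the LPS arrays, far above mock.

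LPS against mock gave 1.17 ± 0.09 in brain (adjusted p = 7.65e-05), 0.52 ± 0.08 in heart (0.00123), 1.93 ± 0.06 in kidney (4.75e-08) and 1.83 ± 0.07 in liver (1.71e-07) for Stat3. In fold terms this was 2.25, 1.44, 3.82 and 3.55. With LPS+genipin against LPS, Stat3 fell in brain (-0.54 ± 0.09, adjusted p = 0.00413), heart (-0.34 ± 0.08, adjusted p = 0.0125) and kidney (-0.62 ± 0.06, adjusted p = 6.30e-05). In liver the difference of -0.13 ± 0.07 did not pass (adjusted p = 0.14, 95% interval -0.28 to 0.03), and it passed without LPS array 1 (-0.20, adjusted p = 0.015). Relative to mock, Stat3 in LPS+genipin arrays was higher in brain, kidney and liver (0.63 ± 0.09, 1.31 ± 0.06 and 1.70 ± 0.07; adjusted p = 0.0035, 1.05e-06 and 4.68e-07). In heart it was 0.18 ± 0.08 (adjusted p = 0.158), and 0.28 without LPS+genipin array 3 (adjusted p = 0.0282). The second Stat3 probe gave LPS differences of 0.91 ± 0.06, 0.50 ± 0.10, 1.98 ± 0.07 and 1.42 ± 0.09 (brain, heart, kidney, liver), and -0.62 ± 0.06, -0.30 ± 0.10, -0.75 ± 0.07 and -0.17 ± 0.09 for LPS+genipin against LPS.

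**Figure D4:**
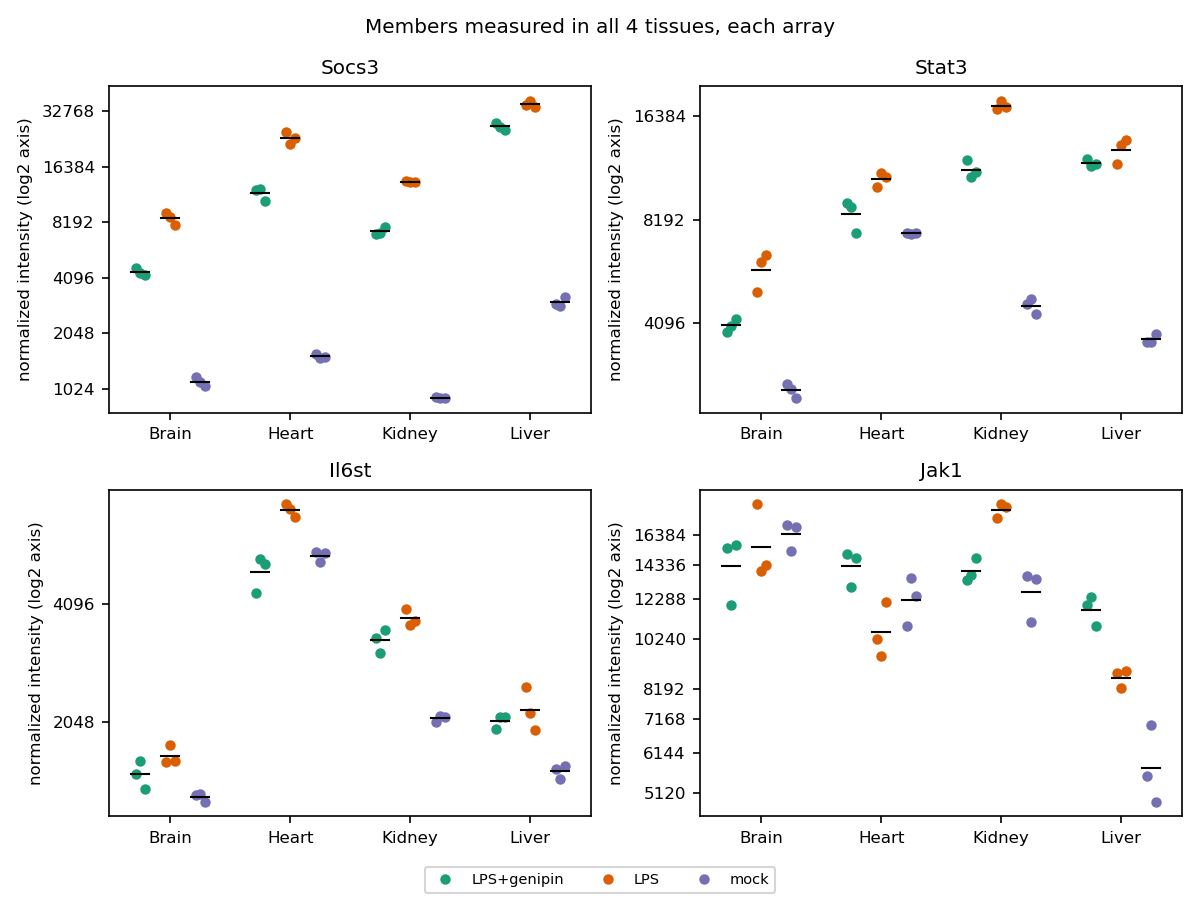
Normalized intensity (log2 axis) of Socs3, Stat3, Il6st and Jak1 in each array of the 4 tissues, with LPS+genipin, LPS and mock from left to right; points are arrays and bars are group means of the log2 values. Socs3 has 3 separate levels in every tissue, Stat3 in brain and kidney, and Jak1 in liver has the LPS+genipin arrays highest.

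Socs3 (chromosome 11, 117966079 to 117970336), the feedback inhibitor whose promoter stretch is printed above, had the largest LPS rise of the members in brain, heart and kidney and the largest measured one in liver, where the rise of Il6 is known only as a lower bound. Brain intensities were 4628, 4351 and 4255 in LPS+genipin arrays, 9247, 8720.3 and 7968 in LPS arrays and 1188, 1118 and 1061 in mock arrays. Heart intensities were 12332, 12403 and 10660.0 in LPS+genipin arrays, 25163, 21907 and 23535 in LPS arrays and 1583, 1507 and 1520.4 in mock arrays. In both tissues the LPS+genipin arrays lay apart from the other groups, about midway between them on the linear scale. Kidney intensities were 7116, 7136 and 7695 in LPS+genipin arrays, 13689, 13527 and 13618 in LPS arrays and 925, 916 and 914 in mock arrays. Liver intensities were 28458, 26815 and 26085 in LPS+genipin arrays, 35417, 37312 and 34534 in LPS arrays and 2954, 2897 and 3229 in mock arrays. The groups were separate again, and in liver the LPS+genipin arrays stood nearer to the LPS arrays than to mock.

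LPS raised Socs3 7.7-fold in brain, 15.3-fold in heart, 14.8-fold in kidney and 11.8-fold in liver. The log2 differences were 2.94 ± 0.07, 3.93 ± 0.08, 3.89 ± 0.04 and 3.56 ± 0.06 (adjusted p = 8.93e-08, 8.77e-09, 1.89e-10 and 3.68e-09). By size of the LPS rise, Socs3 was 13th of 10148 genes in brain, 33rd of 9536 in heart, 37th of 9485 in kidney and 33rd of 8479 in liver. LPS+genipin against LPS gave -0.97 ± 0.07 in brain (adjusted p = 7.21e-05), -0.997 ± 0.08 in heart (3.75e-05), -0.90 ± 0.04 in kidney (1.72e-06) and -0.40 ± 0.06 in liver (0.00101). LPS+genipin arrays stayed above mock, by 1.98 ± 0.07, 2.94 ± 0.08, 2.99 ± 0.04 and 3.16 ± 0.06 (adjusted p = 1.74e-06, 2.56e-07, 1.70e-09 and 1.32e-08).

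Of the LPS increment in intensity, LPS+genipin arrays held 43.7% for brain Socs3, 46.6% for heart, 50.4% for kidney and 73.6% for liver. For Stat3 they held 43.3%, 32.2%, 52.8% and 87.9% in the same tissues. These shares are descriptions without a test; liver had the highest share for both genes. Neutrophil markers moved beside them: in heart all 4 measured of 9 listed rose with LPS and all 4 fell with LPS+genipin against LPS, with summed intensities of 18983 to 20181 in LPS+genipin hearts, 45052 to 49010.4 in LPS hearts and 3515 to 4100.2 in mock hearts. In liver all 3 measured did the same, with sums of 61776 to 66492 in LPS+genipin livers, 87965 to 92270.5 in LPS livers and 4112 to 4374 in mock livers. In kidney both measured rose with LPS and neither passed with LPS+genipin against LPS, with sums of 5923 to 6167 in LPS+genipin kidneys, 6211 to 8110.5 in LPS kidneys and 779.6 to 918 in mock kidneys. In brain 2 of 5 measured rose with LPS and 1 fell, and 1 rose with LPS+genipin against LPS, with sums of 4700.1 to 4813 in LPS+genipin brains, 3984 to 4833 in LPS brains and 2288 to 2358 in mock brains. None of the measured neutrophil markers lay at the floor in all arrays of a tissue, and their part in the member values was not tested.

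Whether a member's difference varied among tissues was tested with an interaction term over the tissues in which it was read. The test treated arrays of different tissues as independent, though tissues may have come from the same mice. For LPS against mock the difference varied for Socs3 (adjusted p = 4.25e-10), Stat3 (7.62e-12), Jak1 (0.000127) and Il6st (0.000745) over 4 tissues, where 77.1% of all genes did. The Il6st call was lost with the mean of both probes (adjusted p = 0.112). For LPS+genipin against LPS it varied for the same 4 (adjusted p = 5.91e-06, 0.00145, 0.000131 and 0.00511), where 74.5% of all genes did. With shares of that size in all genes, 4 of 4 is no mark of these members. Osmr rose more in kidney than in heart with LPS (adjusted p = 0.00156, background 37.2%), while its difference with LPS+genipin against LPS did not pass between the 2 tissues (0.648, background 42.3%). Lifr differed between kidney and liver with LPS (adjusted p = 0.00148, background 51.0%) and did not pass with LPS+genipin against LPS (0.0637, background 38.3%). The second Lifr value was 0.048 with a variance trend and 0.546 with the mean of both probes. Jak2 differed among brain, kidney and liver in both comparisons (adjusted p = 0.00712 and 0.0106, background 71.4% and 62.4%), on the probe whose arrays disagreed. Il6ra passed in neither between heart and liver (0.961 and 0.122, background 44.7% and 44.0%).

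LPS+genipin against mock called 2 brain, 2 heart, 4 kidney and 6 liver members, and LPS against mock 4, 4, 5 and 6. In brain 2 of 5 members, Socs3 and Stat3, were higher and none lower, against 8.92% and 5.59% of all genes. In heart 2 of 6, Socs3 and Osmr, were higher and none lower, against 7.61% and 12.3%. In kidney 4 of 7 were higher and none lower, against 20.2% and 24.4%, and in liver 5 of 8 were higher and 1 lower, against 28.5% and 32.4%. The heart count leaves out the second probes of Jak2, which was higher there (0.89 ± 0.11), and of Lifr, which did not pass (-0.05 ± 0.10). In kidney the second probes of Jak2 (0.30 ± 0.08, adjusted p = 0.0211) and Lifr (0.23 ± 0.08, adjusted p = 0.04996) were higher than in mock. The brighter probes of both genes, used for the count, did not pass there. LPS+genipin and mock arrays were fully apart for 3 of 5, 3 of 6, 4 of 7 and 6 of 8 members in brain, heart, kidney and liver, beside 41.4%, 41.5%, 54.1% and 69.2% of all genes. Osmr stood 2.34-fold above mock in heart and 3.37-fold above it in kidney (adjusted p = 4.29e-05 and 8.58e-08). Il6st was above mock in kidney (0.66 ± 0.06, adjusted p = 5.93e-05) and liver (0.43 ± 0.09, 0.00384), and Lifr below it in liver (-0.20 ± 0.05, 0.0082). The second Il6st probe did not pass in kidney (0.19 ± 0.09, adjusted p = 0.127) and passed in liver (0.73 ± 0.09, adjusted p = 0.00027).

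Other ligands and receptors of the IL-6 family, taken as one list, were sparsely measured, with 4, 4, 3 and 3 of 12 listed genes in brain, heart, kidney and liver. With LPS, 2, 2, 3 and 1 of these rose and none fell, against 16.4%, 18.3%, 25.3% and 29.3% higher over all genes. All that rose were ligands or ligand subunits: Il11 (0.40 ± 0.05) and Ebi3 (0.32 ± 0.11) in brain, Ctf1 (0.90 ± 0.14) and Osm (0.56 ± 0.12) in heart, Ebi3 (at least 3.38-fold), Osm (0.75 ± 0.14) and Ctf1 (0.25 ± 0.08) in kidney, and Il27 (1.27 ± 0.26) in liver. Osm encodes oncostatin M, the ligand of the receptor chain Osmr. Its kidney intensities were 634, 569.8 and 569.6 in LPS+genipin arrays, 903, 1193 and 1349 in LPS arrays and 643, 735 and 644 in mock arrays, and the LPS arrays lay above both other groups. With LPS+genipin against LPS, 2, 1, 3 and 2 of the list fell and none rose, against 13.8%, 19.9%, 22.6% and 24.4% lower over all genes, among them kidney Osm (-0.94 ± 0.14) and Ebi3 (-1.06 ± 0.08) and liver Il27 (-1.34 ± 0.26). The list's medians were -0.27, -0.25, -0.94 and -0.90, where those of all genes were 0.01 to 0.04.

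Among the other Janus kinases and STATs, 2 of 4 measured rose with LPS in brain, 1 of 6 in heart with 1 lower, 3 of 5 in kidney, and 3 of 6 in liver with 1 lower. Over all genes 16.4%, 18.3%, 25.3% and 29.3% rose and 17.6%, 29.1%, 39.2% and 37.2% fell, so that the heart count lies near that share. The interferon-pathway factor gene Stat2 rose in heart (2.10 ± 0.09) and liver (0.998 ± 0.07), and Stat5b, which carries growth hormone signals, fell in liver (-1.003 ± 0.18). With LPS+genipin against LPS, 2 of 4 fell in brain, 1 of 6 fell and 1 rose in heart, 4 of 5 fell and 1 rose in kidney, and 4 of 6 fell in liver, against 13.8%, 19.9%, 22.6% and 24.4% lower over all genes. The shares of all genes that rose were 16.4%, 22.1%, 32.3% and 29.6%, so that both heart counts lie near the shares over all genes. Jak3, the kinase of the common gamma chain receptors, fell in brain (-0.66 ± 0.12), kidney (-0.85 ± 0.16) and liver (-1.95 ± 0.21). The gene Stat4 fell in kidney (-1.52 ± 0.24) and liver (-1.82 ± 0.32).

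Inhibitors other than Socs3 rose in 1 of 11 measured in brain, 7 of 12 in heart, 6 of 13 in kidney and 8 of 12 in liver with LPS, and fell in 0, 1, 2 and 0. Over all genes 16.4%, 18.3%, 25.3% and 29.3% rose and 17.6%, 29.1%, 39.2% and 37.2% fell. The brain count of those that rose is under the share of all genes that rose. Socs1, the inhibitor closest to Socs3 in mode of action, rose in heart (1.83 ± 0.17), kidney (at least 10.1-fold) and liver (3.04 ± 0.19). Its kidney intensities were 869.7, 821 and 834 in LPS+genipin arrays, 2576, 2572 and 2793 in LPS arrays and 201, 186 and 208 in mock arrays, with 3 separate levels. Ptpn1 and Ptpn2, phosphatases that act on Janus kinases, rose in heart (1.45 ± 0.06 and 1.87 ± 0.11), kidney (1.57 ± 0.06 and 1.05 ± 0.07) and liver (2.51 ± 0.05 and 1.99 ± 0.07). Socs1 fell with LPS+genipin against LPS in heart (-1.25 ± 0.17), kidney (-1.65 ± 0.04) and liver (-1.27 ± 0.19), whereas Cish, a cytokine-induced member of the same family, rose in liver (1.16 ± 0.05). The counts in that comparison were 4 lower and 2 higher of 11 in brain, 4 and 0 of 12 in heart, 6 and 4 of 13 in kidney, and 5 and 1 of 12 in liver, against 13.8%, 19.9%, 22.6% and 24.4% lower and 16.4%, 22.1%, 32.3% and 29.6% higher over all genes.

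Genes of receptor shedding and of the MAP kinase branch moved both ways with LPS, where 0 rose and 1 fell of 11 measured in brain, 1 and 4 of 11 in heart, 4 and 5 of 10 in kidney, and 4 and 2 of 10 in liver. Over all genes 16.4%, 18.3%, 25.3% and 29.3% rose and 17.6%, 29.1%, 39.2% and 37.2% fell, so that several of these counts lie near the share over all genes. Gab1, an adaptor of receptor kinases, fell in heart (-0.28 ± 0.09), kidney (-0.64 ± 0.10) and liver (-0.99 ± 0.06), and was higher with LPS+genipin than with LPS in kidney (0.69 ± 0.10) and liver (0.50 ± 0.06). In that comparison 2, 3, 2 and 3 of the list rose and 0, 1, 0 and 0 fell (brain, heart, kidney, liver), against 16.4%, 22.1%, 32.3% and 29.6% higher and 13.8%, 19.9%, 22.6% and 24.4% lower over all genes.

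Genes listed as STAT3 targets rose with LPS in 10 of 16 measured in brain, 12 of 17 in heart, 10 of 13 in kidney and 13 of 16 in liver, and fell in 2, 1, 2 and 2. Over all genes 16.4%, 18.3%, 25.3% and 29.3% rose and 17.6%, 29.1%, 39.2% and 37.2% fell. The medians of the list were 0.36, 1.36, 1.12 and 1.48, where those of all genes were -0.00, -0.06, -0.09 and -0.03. Many of these genes also answer to NF-kB. Steap4, a metalloreductase gene, rose in heart (2.93 ± 0.11), kidney (5.00 ± 0.15) and liver (at least 8.38-fold), and Il1rn, the interleukin 1 receptor antagonist, rose at least 24.3-fold in liver. In LPS+genipin against LPS arrays, 8 of 16 fell and 0 rose in brain, 10 of 17 fell and 3 rose in heart, 9 of 13 fell and 3 rose in kidney, and 6 of 16 fell and 2 rose in liver. Over all genes 13.8%, 19.9%, 22.6% and 24.4% fell and 16.4%, 22.1%, 32.3% and 29.6% rose. Timp1, a metalloproteinase inhibitor, had 1013, 1086 and 1221 in LPS+genipin hearts, 13601, 14704 and 15022 in LPS hearts and 505, 511 and 410.2 in mock hearts. In brain Timp1 had 254, 285 and 256 in LPS+genipin arrays, 1427, 1761 and 1597 in LPS arrays and 64.6, 167 and 168 in mock arrays. In heart the LPS+genipin arrays lay between the others and far nearer to mock than to LPS on the linear scale, with a difference from LPS of -3.71 ± 0.11. In brain all mock arrays and 2 of 3 LPS+genipin arrays were under the floor and have no order. The difference from LPS was -2.56 ± 0.08, with all 3 LPS+genipin arrays close to the floor. Icam1 fell with LPS+genipin in brain (-1.58 ± 0.06), heart (-1.11 ± 0.10) and kidney (-0.93 ± 0.05) and rose in liver (0.67 ± 0.07).

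**Figure D5:**
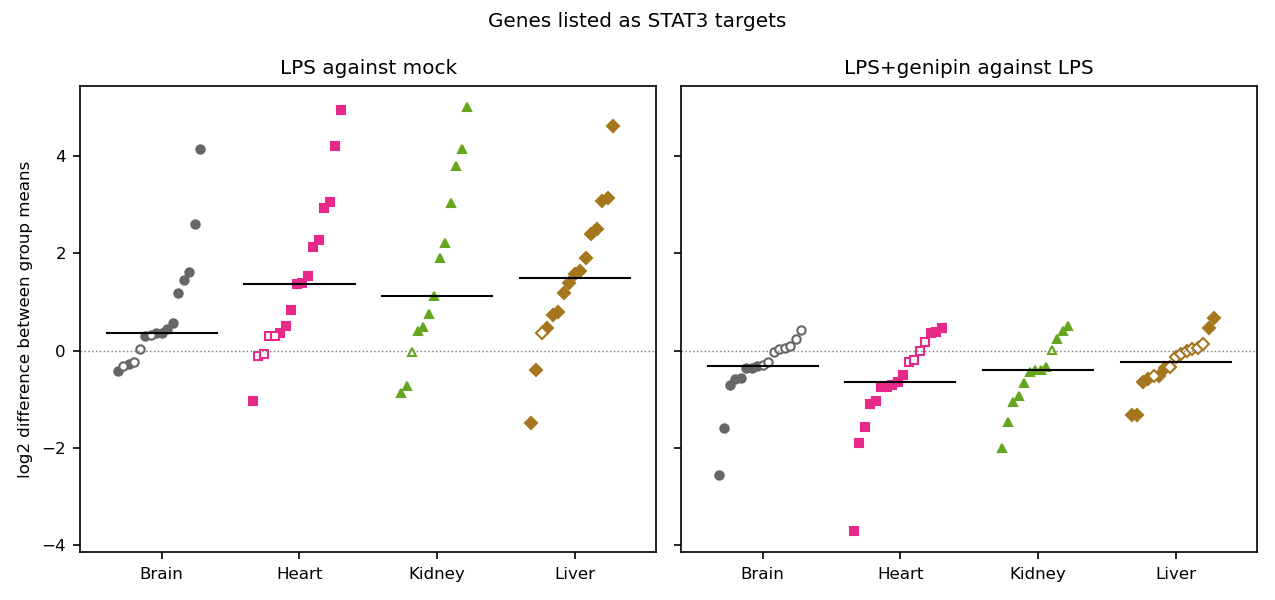
Log2 differences between group means (vertical axis) of each measured gene listed as a STAT3 target, by tissue, for LPS against mock on the left and LPS+genipin against LPS on the right; filled points passed the test and bars are medians. On the left the medians are 0.36, 1.36, 1.12 and 1.48 in brain, heart, kidney and liver, and on the right -0.31, -0.65, -0.40 and -0.24.

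Acute-phase genes of the IL-6 type rose with LPS in all that were measured outside liver: 9 of 9 in brain, 8 of 8 in heart and 12 of 12 in kidney. In liver 10 of 22 rose and none fell, with a median of 0.06, and 12 did not pass. Over all genes 16.4%, 18.3%, 25.3% and 29.3% rose (brain, heart, kidney, liver). Of the 22, 7 were saturated (60000 or above) on all 9 liver arrays, Hp among them, so that no difference could be read for those 7 and the liver counts and median are limited by it. Kidney Fgb, the fibrinogen beta chain gene, had 2096, 1872 and 2284 in LPS+genipin arrays, 16999, 17185 and 18134 in LPS arrays and 267, 306 and 293 in mock arrays. Heart Hp, the haptoglobin gene, had 1988, 2513 and 2404 in LPS+genipin arrays, 59337, 57909.8 and 50208 in LPS arrays and 257, 264 and 247 in mock arrays. Each had 3 separate levels, with LPS highest. Between LPS+genipin and LPS, 4 of 9 fell in brain, 7 of 8 in heart, 9 of 12 in kidney with 1 higher, and 4 of 22 in liver, against 13.8%, 19.9%, 22.6% and 24.4% lower over all genes. In kidney 32.3% of all genes were higher. Hp fell in heart (-4.60 ± 0.10), Fgb (-3.07 ± 0.08) and the glycoprotein gene Lrg1 (-2.39 ± 0.07) in kidney, and the ferroxidase gene Cp in brain (-1.14 ± 0.06). The list's medians in that comparison were -0.27, -0.72, -0.47 and 0.00, the liver value again held by the saturated genes.

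Across the 36 arrays, after each tissue's mean was taken off, the genes whose log2 values ran most like those of Socs3 among 6704 measured in all tissues were Map3k8 (Pearson r = 0.983), Icam1 (0.983), Nfkbia (0.976), Ms4a6d (0.969) and Serpina3f (0.965). For Stat3 they were Cd14 (0.975), Nfkb2 (0.966), Akap12 (0.962), Litaf (0.949) and Tlr2 (0.941). Socs3 and Stat3 themselves had r = 0.897, which placed Stat3 58th for Socs3 and Socs3 39th for Stat3. Il6st had r = 0.810 with Socs3 and 0.860 with Stat3, and Jak1 0.427 and 0.557. These are descriptions over arrays that share the same 3 treatment groups.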

How the data were processed

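One-colour arrays of 18183 probes were read from 36 RNA samples, 12 groups of 3. The deposited values are linear intensities that the authors had normalized before deposit; per the file's values, all arrays of a tissue share nearly the same distribution and a tissue's table leaves out some probes. The submitters' processing notes name limma without a version or role.

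From those deposited intensities, values under the 5th percentile of all (263) were raised to it and log2 was taken. Each gene was represented by its probe with the highest mean, and each tissue was fitted apart with limma 3.58.1 (R 4.3.3) as group means over 9 arrays with empirical Bayes and Benjamini-Hochberg adjustment over all its genes, two-sided, at 0.05. A group with all 3 arrays at the floor gives a bound ("at least"). Differences among tissues were tested with an interaction F test. The fits were tested on simulated data. Of the probes, 14817 have 1 gene symbol and 3366 none; symbols were updated through RefSeq's gene table. The number of arrays limits the precision, and arrays give no counts. All members are described; of each other list, counts are given and by name at most the 4 with the largest difference among those that passed, per tissue and comparison, and for likeness the 5 highest correlations. The members and lists were chosen with earlier results of these data known. The labels do not say whether replicate numbers pair the arrays, and the reported fit did not pair them. Of 12 pairs of groups, 1 had every correlation of same-numbered arrays over 0.1 (range over all pairs -0.53 to 0.26). That pair was LPS+genipin and LPS in brain (0.14, 0.19 and 0.18). With 3 arrays per group these correlations cannot decide whether the arrays are paired.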

Additional observations from a re-analysis of the deposited data

Results flagged for a closer look

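The listed differences varied among tissues by the interaction test, which treated tissues as independent, and their explanation was not tested. For Socs3 the adjusted p-values were 4.25e-10 for LPS against mock and 5.91e-06 for LPS+genipin against LPS, and for Stat3 7.62e-12 and 0.00145. For Jak1 they were 0.000127 and 0.000131, with LPS+genipin above LPS in heart and liver and below it in kidney. For Il6st they were 0.000745 and 0.00511, and the first lost its call with the mean of both probes (adjusted p = 0.112). All of these were over 4 tissues and by limma's F test with Benjamini-Hochberg adjustment over all genes. In that test 77.1% of all genes passed for LPS against mock and 74.5% for LPS+genipin against LPS, so these calls are no mark of the members. For Jak2, whose brighter probe varied within groups, they were 0.00712 and 0.0106 over brain, kidney and liver, where 71.4% and 62.4% of all genes passed. For LPS against mock alone, Osmr differed between heart and kidney (adjusted p = 0.00156) and Lifr between kidney and liver (0.00148). In those tests 37.2% and 51.0% of all genes passed.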

How the results depend on the processing

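The 78 member differences were recomputed under 8 alternatives (no floor, a floor at the 10th percentile, no dim genes, cyclic loess, the mean of all probes, a variance trend, only the 2 groups, and a replicate block), by leaving out each of 36 arrays, and with the probe picked within the tissue, which was chosen after seeing the data. The tissue differences were recomputed with no floor, the mean of probes and the variance trend. Counting both, 26 results changed sign or side of the threshold somewhere, and no called difference of a member changed direction under these alternatives. Among the member differences, 4 calls were lost under some alternative, all for LPS+genipin against LPS: Jak2 in brain, Jak1 in heart and liver, and Il6st in kidney.

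Some differences without a call changed sign. With the mean of probes, Il6st gave 0.026 for LPS+genipin against mock in heart and 0.097 for LPS+genipin against LPS in liver, Jak2 gave 0.13 for LPS against mock in kidney, and Lifr gave 0.097 for LPS+genipin against mock in kidney. With cyclic loess, kidney Lifr gave 0.044 for LPS against mock, -0.033 for LPS+genipin against LPS and 0.011 for LPS+genipin against mock. Jak2 in liver gave 0.019 for LPS+genipin against mock with the floor at the 10th percentile, under which Il6ra gave no value for that comparison in liver, all 6 arrays being at the floor. Leaving out 1 array, LPS+genipin against LPS ranged over -0.20 to 0.012 for Jak1 in brain, -0.018 to 0.066 for Lifr in kidney and -0.18 to 0.0022 for Il6st in liver. LPS against mock ranged over -0.038 to 0.31 for Il6ra in heart and -0.86 to 0.92 for Jak2 in kidney. LPS+genipin against mock ranged over -1.29 to 0.11 for Jak2 in brain, -0.076 to 0.0082 for Lifr in kidney and -0.92 to 0.31 for Jak2 in liver. The causes were not tested. With the mean of probes, liver Stat3 (-0.15) and kidney Lifr (0.15, adjusted p = 0.0312) passed with LPS+genipin against LPS. Under that setting the Il6st tissue difference with LPS no longer passed (adjusted p = 0.112). The Lifr tissue difference for LPS+genipin against LPS passed with the variance trend (adjusted p = 0.048).

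Fitting only the 2 groups, 1894 genes were called in brain for LPS+genipin against LPS (3063 in the reported fit) and 2250.0 for LPS+genipin against mock (1472). Leaving out 1 array gave 2250.0 to 3686 genes for LPS against mock in brain (3442 with all arrays), lowest without mock array 3. For LPS+genipin against mock it gave 846 to 1182 in brain (1472 with all arrays; 912 without LPS+genipin array 2, and 846, 958 and 858 without mock arrays 1, 2 and 3). In heart it gave 1199 to 1505 (1903 with all arrays; 1199 and 1204 without LPS+genipin arrays 1 and 2, and 1259 without mock array 2). With the replicate number as a block, the counts of genes called were 0.71 to 1.01 times those reported (1356 against 1903 for LPS+genipin against mock in heart). The block brought liver Jak2 past the threshold for LPS against mock (1.65, adjusted p = 0.049) and LPS+genipin against LPS (-1.75, adjusted p = 0.0493) and ended no call of a member. Cyclic loess also brought both past it (adjusted p = 0.0418 and 0.042). So did fitting only the 2 groups for LPS against mock (0.0155) and leaving out dim genes for LPS+genipin against LPS (0.0482). Low intensities limit Il6ra and Jak2, and saturation limits the acute-phase genes in liver.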

Other observations

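LPS+genipin arrays were also set against mock for the acute-phase and STAT3 target genes. Of the acute-phase genes measured, 8 of 9 were higher in LPS+genipin than in mock brains, 8 of 8 in hearts, 12 of 12 in kidneys and 10 of 22 in livers, and none was lower. Of the STAT3 targets, 5 of 16, 13 of 17, 10 of 13 and 12 of 16 were higher in brain, heart, kidney and liver, and 0, 3, 2 and 3 lower. Over all genes 8.92%, 7.61%, 20.2% and 28.5% were higher and 5.59%, 12.3%, 24.4% and 32.4% lower in that comparison.

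Lcn2, which encodes an iron-sequestering protein of neutrophils and injured epithelia, was at least 70.6-fold higher in LPS than in mock hearts and at least 161-fold higher in kidneys. Saa3, a serum amyloid A gene, was at least 31.6-fold higher in LPS than in mock livers. Saa4, the constitutive member of that family, fell in liver with LPS+genipin against LPS (-0.69 ± 0.10, adjusted p = 0.000774). Endothelial markers in heart summed to 49232 to 52006 in LPS+genipin arrays, 39297 to 40551 in LPS arrays and 56071 to 59233 in mock arrays.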
